A study of Homo sapiens with 16 samples.

Results

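Unedited cells of 2 established human melanoma lines, A375 and SKMEL28, were compared by RNA-seq. The comparison used the 4 libraries labelled wild type of the 16 in the series, chosen by their titles: 3 from A375 (replicates 1 to 3) and 1 from SKMEL28 (replicate 4). A375 was grown in DMEM and SKMEL28 in RPMI, each with fetal bovine serum and antibiotics, and the medium was renewed on the day before harvest. Line and medium therefore cannot be told apart in any difference below. The other 12 libraries were used as a second view of the same lines: 3 of A375 TFE3KO cells, 3 of SKMEL28 MITFKO cells, and 6 of a pair of SKMEL28 clones (3 and 13) in which TFE3 was edited on top of MITFKO (DKO). Replicates came from separate flasks of 1 line, so the p-values cover only culture-to-culture variation. Because SKMEL28 wild type had 1 library, its spread was taken to be that of the other groups.

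Melanoma cells differ in how much of the melanocyte programme they keep. MITF, a basic helix-loop-helix transcription factor, drives the enzymes and structural proteins of the melanosome, the organelle in which melanin is made. Its relatives TFE3, TFEB and TFEC bind similar E-box letters and are known for lysosome and autophagy genes. Lines with little MITF often carry an undifferentiated or invasive programme, marked by receptor tyrosine kinases such as AXL and EGFR, by matrix genes and by inflammatory cytokines.

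MITF is known to bind the letters CATGTG, best with a leading T (the M-box), in the promoters of pigment genes. These letters were looked up in the 250 bases before the RefSeq start of each gene (GRCh38.p14, both strands), and each match to the longer motif is also one to the shorter. The longer motif, TCATGTG, stood in 886 of 35116 promoters (2.52%), and the shorter in 3307 (9.42%). Of the 28 genes on the pigment list, 24 matched the promoter table; the longer motif stood in 7 of these (29.2%) and the shorter in 10 (41.7%). DCT and MLANA held neither motif in this window, and PMEL was not matched. The 4 stretches below are shown as pigment genes that hold the longer motif and were lower in A375 wild type; capitals mark the match or its reverse complement, and each is written 5′ to 3′ along the gene. They lie at chr11:89177743-89177803 (TYR, plus strand), chr15:48120948-48120989 (SLC24A5, plus strand), chrX:9765848-9765935 (GPR143, minus strand) and chr7:23246625-23246746 (GPNMB, plus strand).
TYR: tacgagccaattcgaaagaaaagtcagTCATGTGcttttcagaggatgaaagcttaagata
SLC24A5: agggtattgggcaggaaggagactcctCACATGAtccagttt
GPR143: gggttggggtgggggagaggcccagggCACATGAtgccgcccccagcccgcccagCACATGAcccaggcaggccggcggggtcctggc
GPNMB: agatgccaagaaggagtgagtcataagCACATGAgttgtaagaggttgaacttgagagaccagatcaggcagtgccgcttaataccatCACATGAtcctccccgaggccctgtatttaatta
In TYR the match to the longer motif began 105 bases before the gene's start and in SLC24A5 15 bases before it. GPR143 held 2 matches, at 61 and 33 bases, and GPNMB 2, at 123 and 62 bases. A match is a description of the letters and says nothing about binding in these cells.

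Total counts were 20429208 to 20881244 in the A375 wild-type libraries and 23177517 in the SKMEL28 wild-type library, within the series' 17320855 to 31269126. A gene at 0 is bounded here by 3 counts, worth 0.0463 CPM (counts scaled by library size and TMM factor) over the 3 A375 wild-type libraries and 0.123 CPM in the SKMEL28 wild-type library; these floors and the 95% intervals on count ratios cover counting error only. The SKMEL28 wild-type library, the only SKMEL28 library without the MITFKO label, lay outside the range of the other 15 in many genes. It lay below all 15 in 2162 of the 16248 genes tested and above all 15 in 2636, and 14 genes had no count in it and at least 10 counts in every other library, and 5 had the reverse. These counts were not made for any other library, and library and edit cannot be told apart in them. The file header of the SKMEL28 wild-type library also names another alignment input than those of the other libraries that name one. Some genes that most cells use were at or near 0 everywhere, among them HRAS (at most 2 counts) and NEU1 (at most 2); a gene at 0 in all 16 libraries, such as PRAME, is therefore listed at 0 and nothing more is read from it.

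MITF itself was far lower in A375 wild type. It measured 38.9, 34.2 and 30.9 CPM in the 3 A375 wild-type libraries, against 539 CPM in the SKMEL28 wild-type library. The groups did not overlap, and neither did the edited libraries, at 17.1 to 18.6 CPM in A375 TFE3KO and 481 to 969 CPM in edited SKMEL28. The difference was -3.96 ± 0.083 on the log2 scale (± SE, as for all log2 fold changes; adjusted p = 3.52e-25, edgeR quasi-likelihood test with Benjamini-Hochberg adjustment, as for all adjusted p-values here), a 15.5-fold lower count share (95% interval 14.8 to 16.2). All edited SKMEL28 libraries carry the MITFKO label. They held 481 to 542 CPM of MITF in MITFKO cells and 774 to 969 CPM in the DKO clones. Beside 539 CPM in SKMEL28 wild type, MITF mRNA showed no consistent loss. It therefore does not check that label, which is used here as given. TFE3, the relative edited in this series, went the other way: 119.5, 114 and 125 CPM in A375 wild type, against 45 CPM in SKMEL28 wild type (log2 1.41 ± 0.12, adjusted p = 8.51e-12). The A375 TFE3KO libraries held 10.9 to 12.2 CPM of it, far below A375 wild type. The SKMEL28 MITFKO libraries, without the TFE3 edit, held 72.3, 74.3 and 79.7 CPM of TFE3. The DKO clones, edited on top of MITFKO, differed from each other. Clone 3 held 8.35, 8.77 and 11.8 CPM of TFE3. Clone 13 held 43.6, 48.1 and 49.3 CPM, below the MITFKO libraries but near SKMEL28 wild type. TFEB was low in both, at 1.92, 2.41 and 3.55 CPM in A375 wild type and 1.6 CPM in SKMEL28 wild type, and was not called (log2 0.71 ± 0.48, adjusted p = 0.189). TFEC, at most 7 counts in any library, was not tested. In bulk RNA, fewer cells of a type and less RNA per cell cannot be told apart.

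Differences between the lines were widespread. Of 16248 genes tested, 10988 (67.6%) were called at an adjusted p under 0.05, 5533 higher (34.1%) and 5455 lower (33.6%) in A375 wild type. Large differences, called and at least 4-fold, numbered 1845 higher (11.4%) and 1793 lower (11%). A list is therefore read below against these shares, since most genes of any list could be called. The 3 A375 wild-type libraries did not overlap the SKMEL28 wild-type library in 89.2% of all genes, so that alone sets no gene apart. The edited libraries are given for genes on which a result turns, and for called genes that did not separate. In all, 47% of all genes separated completely (24.5% higher and 22.4% lower in A375), with all 6 A375 libraries on one side of all 10 SKMEL28 libraries, and so did 72.9% of the large differences (72% of those higher and 73.7% of those lower in A375 wild type).

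**Figure D1:**
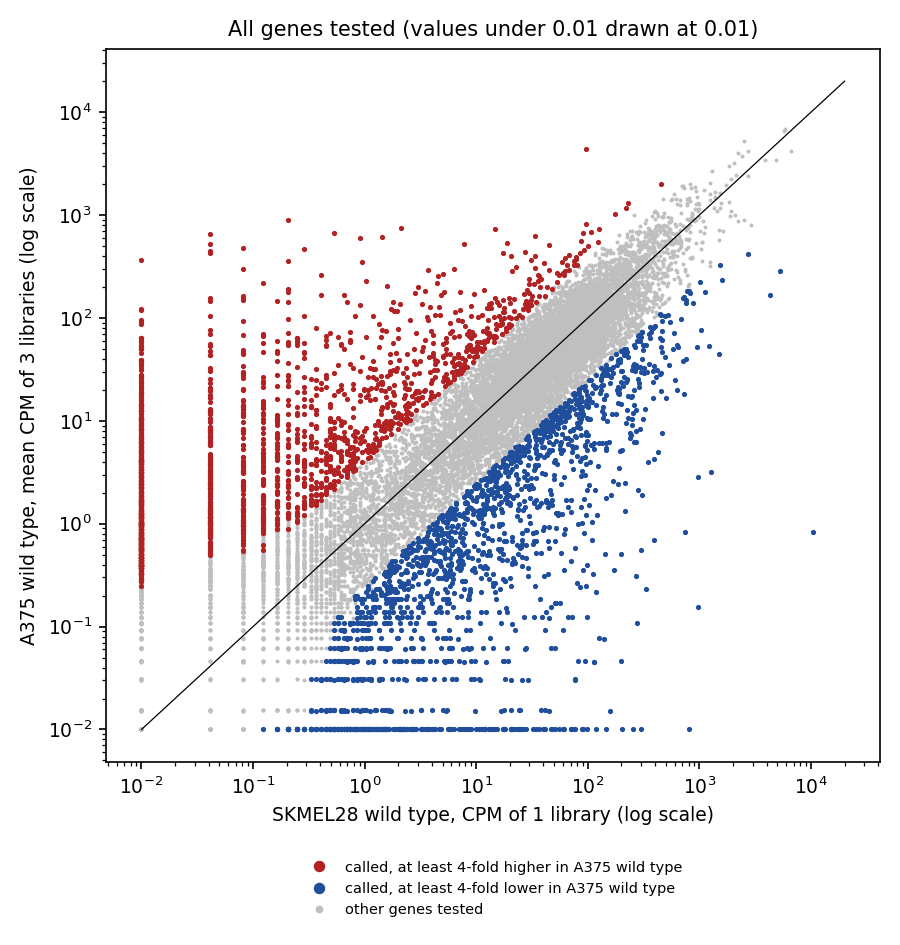
Mean CPM of the 3 A375 wild-type libraries (y axis, log scale) against CPM in the 1 SKMEL28 wild-type library (x axis, log scale) for the 16248 genes tested; the line marks equal values, and values under 0.01 are drawn at 0.01. The 1845 red and 1793 blue genes were called and at least 4-fold higher or lower in A375 wild type.

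Markers of other cell types were checked. Of 10 leukocyte and endothelium markers 6 were tested, 1 called higher and 1 lower in A375 wild type; they summed to 4.50 to 5.23 CPM in A375 wild type and 3.73 CPM in SKMEL28 wild type, with FCGR3A at 0. Of 8 keratinocyte markers, 4 were tested and called higher in A375 wild type, summing to 75.5 to 82.2 CPM against 34.6 CPM in SKMEL28 wild type. KRT10 averaged 48.5 CPM in A375 wild type and 33.8 CPM in SKMEL28 wild type. KRT14 and DSC3 averaged 17.7 and 8.55 CPM in A375 wild type, against 0.533 and 0 CPM in SKMEL28 wild type. KRT5, KRT1 and TP63 had at most 6, 2 and 3 counts and DSG3 had 0. Of 10 fibroblast markers, 4 of 7 tested were called higher and 2 lower in A375 wild type, summing to 14.1 to 16.3 CPM against 45.8 CPM in SKMEL28 wild type. LUM averaged 0.923 CPM in A375 wild type and 40.8 CPM in SKMEL28 wild type. PDGFRB was at 5.94, 5.57 and 8.31 CPM in A375 wild type and 0 CPM in SKMEL28 wild type. THY1 had at most 2 counts. The part of other cell types in any difference below was not tested.

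The largest differences higher in A375 wild type were genes with next to no counts in SKMEL28. IGFBP4, a secreted binding protein for insulin-like growth factors, measured 364, 363 and 379 CPM in A375 wild type and 0 CPM in SKMEL28 wild type, at least 2997-fold higher. The branched-chain aminotransferase gene BCAT1 had 123, 126 and 119 CPM in A375 wild type, against 0 CPM in SKMEL28 wild type, at least 998-fold higher. No library of either line overlapped for these genes, since the edited SKMEL28 libraries held at most 0.307 CPM of BCAT1. MAGEC2, a cancer-testis antigen (at least 978-fold), CD70, a tumour necrosis factor family ligand (at least 779.9-fold), TRHDE, a peptidase that degrades thyrotropin-releasing hormone (at least 742-fold), and EHD2, a caveola ATPase (at least 708-fold), were likewise at 0 in SKMEL28 wild type. AXL and the orphan receptor gene GPRC5A had 1 count each there, giving ratios of 16021 (95% interval 2875 to 632820.0) and 12846 (2306 to 507420.0). PNMA8A, GTSF1, LY6K and FBXO27 completed the 12 genes with the largest fitted differences, at least 483-fold to 524-fold higher.

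On the other side, 4 of the 12 largest differences lower in A375 wild type were pigment genes, DCT, TYR, PMEL and SLC24A5, given below. GYG2, a glycogenin that primes glycogen synthesis, was at 0 CPM in the 3 A375 wild-type libraries, against 201 CPM in SKMEL28 wild type, at least 4350.2-fold lower. PLA1A, a phospholipase, was at least 2567-fold lower, and PMP2, a myelin fatty acid-binding protein, at least 1908-fold lower. SCML4, LRRC61 and CADPS were at least 2137-fold, 1968-fold and 1654-fold lower, and ESRP1, an epithelial splicing regulator, at least 1536-fold lower. These genes also separated the edited libraries. RPH3A, a synaptic vesicle protein gene, did not: it had 71.3 CPM in SKMEL28 wild type but 0 to 0.518 CPM in edited SKMEL28, so its at least 1541-fold difference rests on the 1 wild-type library. The size also rests on that library for GYG2, at 5.73 to 11 CPM in edited SKMEL28. SCML4 had 98.8 CPM in SKMEL28 wild type and 10.6 to 19.8 CPM in edited SKMEL28, and ESRP1 71 and 15 to 26.6 CPM. CADPS, at 76.5 CPM in SKMEL28 wild type, was at 71.3 to 162 CPM in edited SKMEL28.

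Pigment genes were lower in A375 wild type almost throughout. Of 27 tested members of the pigment and melanosome list, 25 were called lower and none higher, 22 of them by at least 4-fold; the median log2 fold change was -4.75, against 0.038 over all genes tested. Complete separation of the 16 libraries as lower in A375 held for 19 of the 27, against 22.4% of all genes. In sum the list held 392 to 426 CPM in the A375 wild-type libraries and 16339 CPM in the SKMEL28 wild-type library. DCT, the dopachrome tautomerase of eumelanin synthesis, had 0 CPM in each A375 wild-type library, against 811 CPM in SKMEL28 wild type, at least 17543-fold lower (adjusted p = 7.52e-26). TYR, the tyrosinase that catalyses the first step of melanin synthesis, had 0 CPM in each A375 wild-type library, against 255 CPM in SKMEL28 wild type, at least 5523-fold lower. In edited SKMEL28 these 2 genes stayed at 204 to 295 and 217 to 322 CPM, far above every A375 library. PMEL, which forms the fibrils of the melanosome, measured 1.19, 0.649 and 0.654 CPM in A375 wild type, against 10441 CPM in SKMEL28 wild type (12541-fold lower, 95% interval 9611 to 16695; log2 -13.60 ± 0.28, adjusted p = 1.02e-12).

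Other pigment genes followed in the same direction. SLC24A5, a melanosomal ion exchanger, was at 0 CPM in A375 wild type, against 74.6 CPM in SKMEL28 wild type (at least 1613-fold lower). GPR143, a melanosomal receptor, averaged 0.324 ± 0.141 CPM in A375 wild type (SD, n = 3, as for all CPM written with ±) and 112 CPM in SKMEL28 wild type. GPNMB, a melanosomal and lysosomal glycoprotein that MITF is known to regulate, kept a measurable level in A375 wild type, at 53.2 ± 5.33 CPM, against 1229 CPM in SKMEL28 wild type. These are the genes whose promoter letters are printed above. The transporter SLC45A2 averaged 0.123 ± 0.0698 CPM in A375 wild type and 98.6 CPM in SKMEL28 wild type, and the melanocortin receptor MC1R 11.6 ± 1.69 CPM in A375 wild type and 165 CPM in SKMEL28 wild type. Melanosome transport genes were also lower, with RAB27A at 9.16 ± 1.73 CPM in A375 wild type and 247 CPM in SKMEL28 wild type. At the small end, MYO5A, the motor that carries melanosomes, differed by -1.01, overlapping in the edited libraries, and ATP7A, a copper transporter, by -0.90 on the log2 scale.

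The exceptions were TYRP1 and MYRIP. TYRP1, a melanosomal enzyme with a TCATGTG match of its own, was at 0.0457, 0 and 0.28 CPM in A375 wild type and 0.656 CPM (16 counts) in SKMEL28 wild type, and was not called (log2 -2.54 ± 1.34, adjusted p = 0.097). MYRIP was not called either (adjusted p = 0.343). MLANA, the melanosomal antigen also called MART-1, was called lower, at 1.69, 0.464 and 0.327 CPM in A375 wild type against 739 CPM in SKMEL28 wild type (887-fold, 95% interval 679.6 to 1182). In edited SKMEL28, however, MLANA measured 0.348 to 4.15 CPM, overlapping A375. The high level was thus seen only in the 1 SKMEL28 library without the MITFKO label, where library and edit cannot be told apart.

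**Figure D2:**
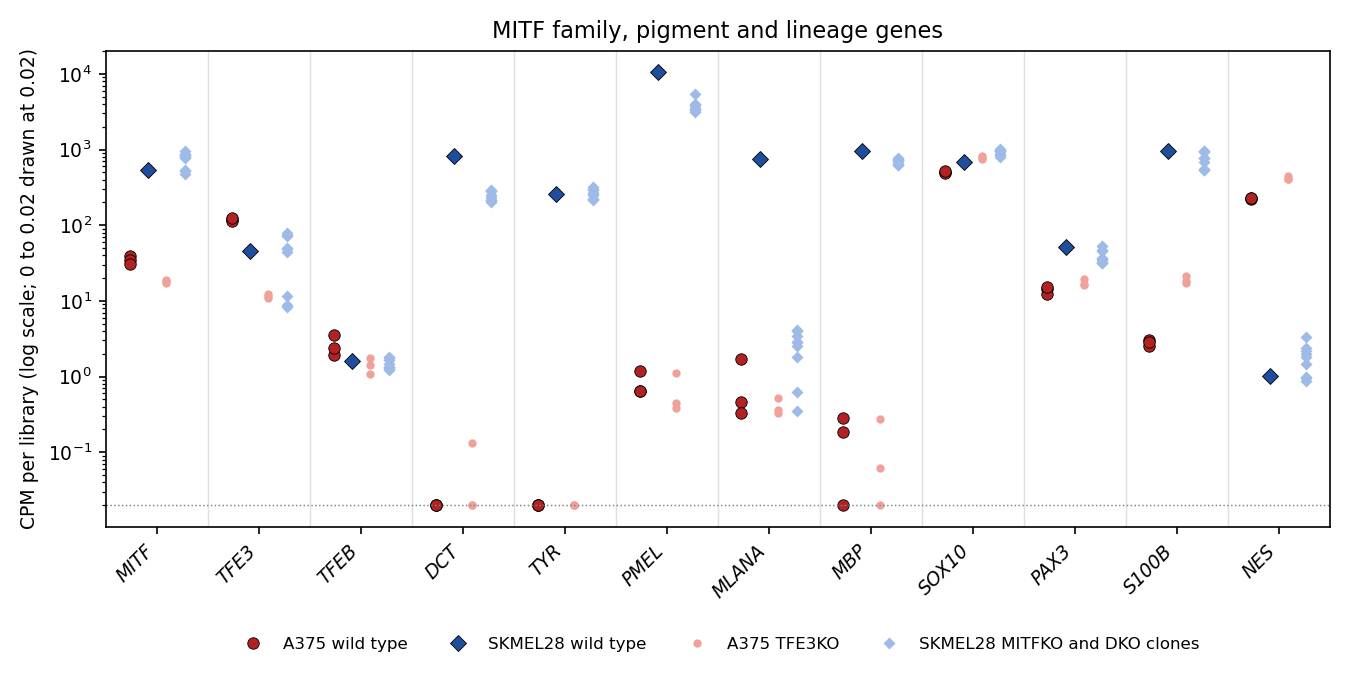
CPM of each of the 16 libraries (y axis, log scale; values from 0 to 0.02 drawn at 0.02) for MITF family, pigment and lineage genes: A375 wild type (3), SKMEL28 wild type (1), A375 TFE3KO (3) and the 9 edited SKMEL28 libraries. DCT and TYR lie at the floor in A375 wild type and at 204 CPM or more in every SKMEL28 library, whereas MLANA is high in SKMEL28 wild type alone and SOX10 is high in every library.

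Among 20 further genes that MITF is known to regulate, 13 were called lower and 6 higher in A375 wild type (median log2 -2.12). MBP, better known as myelin basic protein, measured 0, 0.186 and 0.28 CPM in A375 wild type, against 965 CPM in SKMEL28 wild type (6259-fold lower, 95% interval 3403 to 13053; adjusted p = 6.26e-24). The survival genes BIRC7 and BCL2A1 averaged 0.0467 ± 0.0809 and 2.38 ± 0.615 CPM in A375 wild type, against 197 and 102 CPM in SKMEL28 wild type. The cyclin-dependent kinase CDK2, whose gene neighbours PMEL, averaged 161 ± 1.55 CPM in A375 wild type and 721 CPM in SKMEL28 wild type. In the other direction stood AMIGO2, an adhesion protein, at 349 ± 3.45 CPM in A375 wild type and 0.943 CPM in SKMEL28 wild type (log2 8.52 ± 0.21), and the receptor kinase MET (log2 2.11 ± 0.089), DIAPH1 (1.33 ± 0.073) and FOXM1 (1.25 ± 0.16). BCL2 was not called (log2 0.12 ± 0.19, adjusted p = 0.589).

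Lineage transcription factors were split. Of 30 tested, 14 were called higher and 13 lower in A375 wild type, with 7 and 5 large. SOX10, the neural crest factor that acts upstream of MITF, was high in both lines: 501, 489 and 518 CPM in A375 wild type and 690.4 CPM in SKMEL28 wild type (log2 -0.46 ± 0.064, adjusted p = 2.22e-07). The small difference did not hold across the edited libraries, which overlapped at 759 to 829.5 CPM in A375 TFE3KO and 806 to 1018 CPM in edited SKMEL28. PAX3, which acts with SOX10 on MITF, averaged 13.9 ± 1.49 CPM in A375 wild type and 51.6 CPM in SKMEL28 wild type, called lower (log2 -1.89 ± 0.13). RXRG (log2 -6.01 ± 0.21), SOX6 (-5.53 ± 0.13) and the WNT effector LEF1 (-3.22 ± 0.07) were lower in A375 wild type by larger margins. Higher in A375 wild type were TFAP2B, at 11.8 ± 1.06 CPM in A375 wild type against 0 CPM in SKMEL28 wild type (at least 95.5-fold), NR2F1 (27.6 ± 4.43 CPM in A375 wild type against 0.164 CPM in SKMEL28 wild type) and SOX9 (9.65 ± 1.73 CPM in A375 wild type against 0.656 CPM in SKMEL28 wild type).

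Genes of the neural crest-like melanoma state did not move as a block: 6 of 17 were called higher and 8 lower in A375 wild type. S100B, the calcium-binding protein used as a melanoma marker, was much lower, at 2.56, 3.06 and 2.89 CPM in A375 wild type against 968 CPM in SKMEL28 wild type (log2 -8.41 ± 0.095, adjusted p = 2.44e-33). The endothelin receptor EDNRB (log2 -3.21 ± 0.13) was lower too, with no overlap in any of the 16 libraries. NES, an intermediate filament of neural progenitors, was higher, at 228, 219 and 231 CPM in A375 wild type against 1.03 CPM in SKMEL28 wild type (log2 7.78 ± 0.32). NGFR, the nerve growth factor receptor CD271, averaged 114 ± 3.56 CPM in A375 wild type and 6.48 CPM in SKMEL28 wild type (log2 4.14 ± 0.32). Edited SKMEL28 held 162 to 317 CPM of NGFR, above every A375 library, so this direction does not carry over to those libraries.

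The undifferentiated or invasive list ran opposite to the pigment list. Of 40 genes tested, 36 were called higher and 3 lower in A375 wild type, 34 of the higher ones by at least 4-fold, with a median log2 fold change of 4.46 (4.24 when genes at 0 in a group are put at their bound). AXL, a receptor kinase, measured 669, 634 and 668 CPM in A375 wild type, against 0.041 CPM (1 count) in SKMEL28 wild type (log2 13.77 ± 0.24, adjusted p = 6.50e-29). The adhesion protein CDH13 averaged 145 ± 8.3 CPM in A375 wild type and 0.041 CPM in SKMEL28 wild type. TGFBI, a secreted matrix protein, averaged 599 ± 2.71 CPM in A375 wild type and 0.902 CPM in SKMEL28 wild type (663-fold, 95% interval 438 to 1059). These 3 genes separated all 16 libraries. The WNT ligand WNT5A averaged 203 ± 3.77 CPM in A375 wild type and 1.6 CPM in SKMEL28 wild type (log2 6.98 ± 0.14); edited SKMEL28 lay closer, at 67.6 to 119.9 CPM. EGFR, the epidermal growth factor receptor, was at 70.7, 71.6 and 66.7 CPM in A375 wild type against 8.2 CPM in SKMEL28 wild type (log2 3.09 ± 0.19).

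For part of this list the SKMEL28 wild-type library lay far below edited SKMEL28. NRP1, a semaphorin and VEGF co-receptor, averaged 167 ± 4.76 CPM in A375 wild type and 0.656 CPM in SKMEL28 wild type (log2 7.98 ± 0.15), but 134 to 168 CPM in edited SKMEL28, overlapping A375. THBS1, an adhesive glycoprotein, averaged 4394 ± 129 CPM in A375 wild type and 96.7 CPM in SKMEL28 wild type. In edited SKMEL28 it reached 1543 to 3226 CPM, still below the A375 wild-type mean. In all, 22 of the 40 genes separated the 16 libraries as higher in A375 and 2 as lower. The 3 genes called lower were the peptide hormone UCN2 (24.6 ± 2.44 CPM in A375 wild type, 603 CPM in SKMEL28 wild type), the ectonucleotidase NT5E (log2 -1.50 ± 0.081), which overlapped in the edited libraries, and the matrix protein TNC (-1.21 ± 0.057).

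Cadherins and EMT transcription factors were called 8 higher and 7 lower of 17 in A375 wild type. CDH1, epithelial cadherin, had 0 CPM in each A375 wild-type library, against 32.1 CPM in SKMEL28 wild type (at least 694-fold lower, adjusted p = 3.47e-13); edited SKMEL28 held 0 to 0.256 CPM, overlapping A375. CDH2, neural cadherin, averaged 259 ± 8.27 CPM in A375 wild type and 35.7 CPM in SKMEL28 wild type (log2 2.86 ± 0.10). Zinc finger repressors went both ways. ZEB1 was higher, at 35.6, 35.2 and 36.3 CPM in A375 wild type against 2.87 CPM in SKMEL28 wild type (log2 3.63 ± 0.17). ZEB2 was lower, at 14.9, 15.4 and 15.4 CPM in A375 wild type against 109 CPM in SKMEL28 wild type (log2 -2.84 ± 0.092). SNAI2 was lower as well, at 0.548, 0.649 and 0.327 CPM in A375 wild type against 200.1 CPM in SKMEL28 wild type (393-fold, 95% interval 279.6 to 572). All 3 separated the 16 libraries, and so did TWIST2, at 12.4 ± 1.15 CPM in A375 wild type and 0.041 CPM in SKMEL28 wild type.

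**Figure D3:**
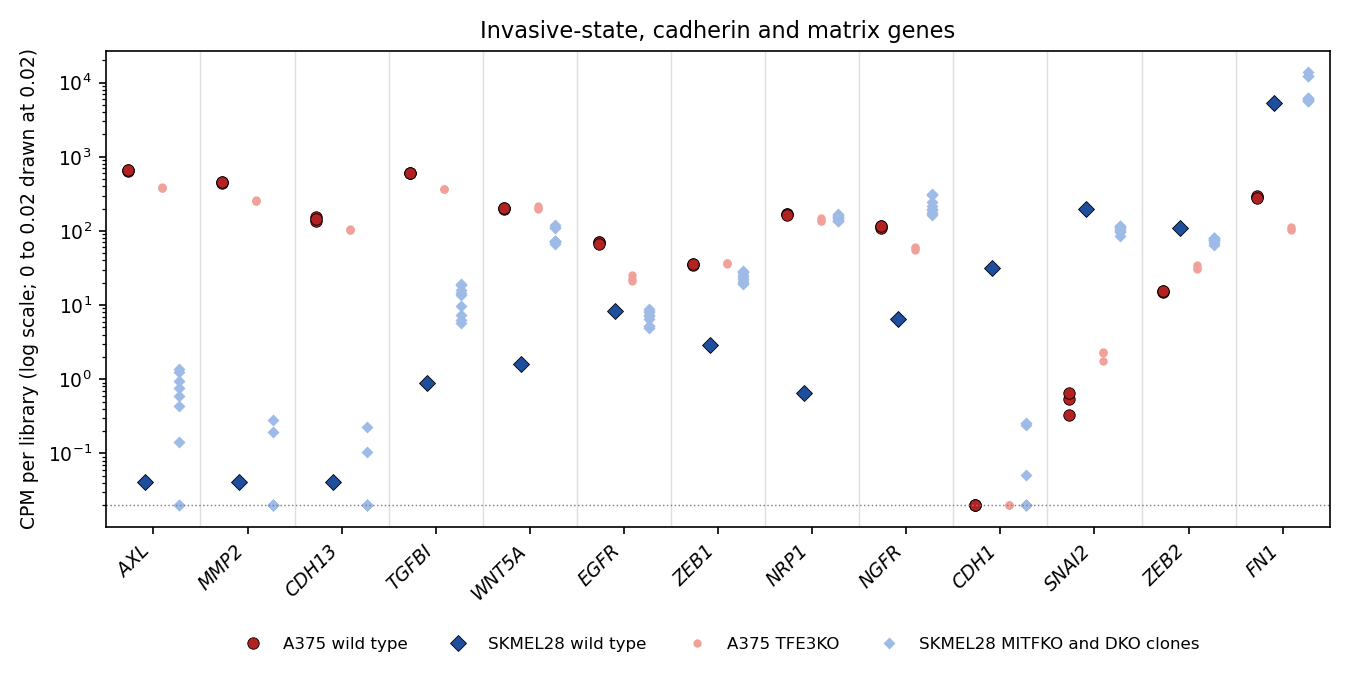
CPM of each of the 16 libraries (y axis, log scale; values from 0 to 0.02 drawn at 0.02) for invasive-state, cadherin and matrix genes: A375 wild type (3), SKMEL28 wild type (1), A375 TFE3KO (3) and the 9 edited SKMEL28 libraries. AXL, MMP2 and CDH13 are at most 1.37 CPM in every SKMEL28 library, while in edited SKMEL28 NRP1 overlaps and NGFR exceeds A375 TFE3KO.

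Receptors for growth factors were called 14 higher and 8 lower of 31 in A375 wild type. Besides AXL and EGFR, the collagen receptor DDR2 averaged 61.6 ± 5.95 CPM in A375 wild type and 0.738 CPM in SKMEL28 wild type, and the FGF receptor FGFR1 67.5 ± 0.961 CPM in A375 wild type and 9.6 CPM in SKMEL28 wild type. MERTK, of the same family as AXL, was near 0 in A375: 0, 0 and 0.0467 CPM in A375 wild type against 41.3 CPM in SKMEL28 wild type (log2 -10.91 ± 0.36), with 5.13 to 23.1 CPM in edited SKMEL28. ERBB3, the neuregulin receptor of the melanocyte lineage, averaged 139.8 ± 2.43 CPM in A375 wild type and 326 CPM in SKMEL28 wild type, called lower but overlapping in the edited libraries. IGF1R, the insulin-like growth factor receptor, was lower (log2 -1.12 ± 0.078), and FLT1, a VEGF receptor, was at 13.5 ± 1.24 CPM in A375 wild type and 0 CPM in SKMEL28 wild type, 1 of the 14 genes at 0 in that library alone, with 4.29 to 28.5 CPM in edited SKMEL28.

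Eph receptors and semaphorins guide migrating cells. Among 20 Eph receptors and ephrins, 10 were called higher and 4 lower in A375 wild type. EPHA2 measured 678, 665 and 674 CPM in A375 wild type, against 0.533 CPM in SKMEL28 wild type (1261-fold, 95% interval 737 to 2368; adjusted p = 1.58e-15), and EFNB2, a ligand of EphB receptors, averaged 64.9 ± 1.79 CPM in A375 wild type and 0.574 CPM in SKMEL28 wild type. Both separated all 16 libraries. EPHA5 was at 0 CPM in A375 wild type, against 10.5 CPM in SKMEL28 wild type, but at most 0.569 CPM in edited SKMEL28. Semaphorins, neuropilins and plexins were called 11 higher and 10 lower of 29 in A375 wild type. SEMA6D was at 0 CPM in A375 wild type against 24.5 CPM in SKMEL28 wild type (at least 529-fold lower), and the semaphorin 7A receptor PLXNC1 averaged 1.92 ± 0.594 CPM in A375 wild type and 161 CPM in SKMEL28 wild type. PLXNC1 was far lower in edited SKMEL28, at 3.53 to 10.7 CPM, though still above A375 TFE3KO at 1.41 to 2.7 CPM. SEMA3F was higher in A375, at 14 ± 1.54 CPM in A375 wild type and 0.287 CPM in SKMEL28 wild type.

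Output genes of the ERK pathway, which BRAF drives, did not share a direction: 8 of 19 were called higher and 9 lower in A375 wild type. DUSP6, an ERK phosphatase, averaged 134 ± 5.82 CPM in A375 wild type and 101 CPM in SKMEL28 wild type (log2 0.40 ± 0.08), overlapping in the edited libraries. The feedback inhibitor SPRY1 was lower, at 1.56 ± 0.215 CPM in A375 wild type and 24.2 CPM in SKMEL28 wild type, and MYC was lower, at 23.7, 22 and 23.6 CPM in A375 wild type against 158 CPM in SKMEL28 wild type (log2 -2.77 ± 0.079, adjusted p = 1.26e-23). FOSL1, an AP-1 subunit stabilised by ERK, was higher, at 623, 604 and 631 CPM in A375 wild type against 33.9 CPM in SKMEL28 wild type (log2 4.19 ± 0.097). MYC and FOSL1 separated all 16 libraries. Among 21 melanoma oncogenes and suppressors, 10 were called higher and 8 lower in A375 wild type. BRAF averaged 22.4 ± 2.63 CPM in A375 wild type and 29.4 CPM in SKMEL28 wild type (log2 -0.39 ± 0.13, adjusted p = 0.00718), and this call was lost when a GC trend was removed (adjusted p = 0.276) and the 16 libraries did not separate.

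Neighbouring genes of the CDKN2A locus differed in direction. CDKN2A, which encodes p16INK4A and p14ARF, measured 4.89, 3.15 and 3.45 CPM in A375 wild type, against 96.9 CPM in SKMEL28 wild type (log2 -4.66 ± 0.28, adjusted p = 2.20e-08). Its neighbour CDKN2B, the CDK4 inhibitor p15INK4B, was at 0 CPM in all 6 A375 libraries, against 27.8 CPM in SKMEL28 wild type and 44.5 to 102 CPM in edited SKMEL28 (at least 601-fold lower in A375 wild type). MTAP, the methylthioadenosine phosphorylase gene next to them on chromosome 9, was higher instead, at 269.9, 271 and 274 CPM in A375 wild type against 59.7 CPM in SKMEL28 wild type (log2 2.19 ± 0.094). Of 21 G1 cyclins, kinases and inhibitors tested, 11 were called higher and 4 lower in A375 wild type. CCND1, cyclin D1, averaged 886 ± 12.3 CPM in A375 wild type and 332 CPM in SKMEL28 wild type, although edited SKMEL28 exceeded A375 at 1239 to 1514 CPM.

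Several genes known from the DNA damage response and from cell death were much higher in A375 wild type. CDKN1A, the CDK inhibitor p21, measured 216, 217 and 228 CPM in A375 wild type, against 4.47 CPM in SKMEL28 wild type (49.3-fold, 95% interval 40.8 to 60; log2 5.62 ± 0.19, adjusted p = 1.66e-17). FAS, a death receptor, averaged 21.7 ± 2.84 CPM in A375 wild type and 0.164 CPM in SKMEL28 wild type, and EDA2R, a member of the tumour necrosis factor receptor family, 8.18 ± 0.661 CPM in A375 wild type and 0.082 CPM in SKMEL28 wild type. These 3 separated all 16 libraries, and DDB2, a DNA damage sensor (log2 2.29 ± 0.16), BAX (1.32 ± 0.11) and PPM1D (1.57 ± 0.17) did so with smaller margins. The list they come from was mixed, with 15 of 29 called higher and 9 lower in A375 wild type (median log2 0.29); 5 of the higher and 1 of the lower were at least 4-fold. ZMAT3 (log2 -1.39 ± 0.12), PHLDA3 (-1.31 ± 0.081) and CCNG1 (-1.31 ± 0.086) were among the lower ones, and CCNG1 overlapped in the edited libraries. MDM2, a ubiquitin ligase, differed little, at 161 ± 2.87 CPM in A375 wild type and 138 CPM in SKMEL28 wild type (log2 0.23 ± 0.079, adjusted p = 0.0125); without a filter on low counts it was not called (adjusted p = 0.0669).

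Proliferation genes were moderately higher in A375 wild type: 16 of 26 were called higher and 3 lower, none by 4-fold (median log2 0.58). MCM2, a subunit of the replicative helicase, averaged 413 ± 1.12 CPM in A375 wild type and 117 CPM in SKMEL28 wild type (log2 1.82 ± 0.083), and MKI67, the Ki-67 antigen, 515 ± 30.1 CPM in A375 wild type and 326 CPM in SKMEL28 wild type (log2 0.66 ± 0.12). MCM6 (log2 -1.38 ± 0.11), BUB1 (-1.03 ± 0.088) and MCM5 (-0.49 ± 0.12) were lower, and their genes lie on chromosomes 2 and 22, whose medians were low as a whole, as given with the chromosomes. All 3 overlapped in the edited libraries. Of the 26 genes, 19 separated the 16 libraries as higher in A375. Ribosomal protein genes behaved similarly, with 24 of 30 called higher and 2 lower (median log2 0.58). RPS6 averaged 1841 ± 11.2 CPM in A375 wild type and 725 CPM in SKMEL28 wild type. RPS9 was one of the 2 called lower, at 6.07 ± 0.979 CPM in A375 wild type and 146 CPM in SKMEL28 wild type; ribosomal proteins have many near-identical pseudogene copies, and how shared reads were counted is not given in the sources used here, so these values are uncertain.

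Lysosomal genes were lower in A375 wild type. On the list of CLEAR lysosome genes, whose promoters carry the E-box bound by TFEB and TFE3, 28 of 35 were called lower and 2 higher (median log2 -1.18), and 28 separated all 16 libraries as lower. In sum they held 2683 to 2751 CPM in A375 wild type and 13799 CPM in SKMEL28 wild type. CTSD, the aspartic protease cathepsin D, measured 161, 169 and 165 CPM in A375 wild type, against 4288 CPM in SKMEL28 wild type (log2 -4.70 ± 0.14, adjusted p = 6.04e-12). The protease cathepsin H, CTSH, averaged 6.84 ± 0.987 CPM in A375 wild type and 239 CPM in SKMEL28 wild type, and the acid ceramidase ASAH1 29.2 ± 0.804 CPM in A375 wild type and 453 CPM in SKMEL28 wild type. PSAP, the precursor of the saposins, averaged 417 ± 6.18 CPM in A375 wild type and 2753 CPM in SKMEL28 wild type.

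A few lysosomal genes broke the pattern. CTSS, a protease known for processing the class II invariant chain, was higher, at 52.6, 55.6 and 54.9 CPM in A375 wild type against 0.615 CPM in SKMEL28 wild type (log2 6.45 ± 0.36). LAMP1, a major lysosomal membrane glycoprotein, was at 245, 261 and 254 CPM in A375 wild type and 252 CPM in SKMEL28 wild type and was not called (log2 0.0094 ± 0.066, adjusted p = 0.91). In the edited libraries LAMP1 was lower in A375, at 316 to 340 CPM in A375 TFE3KO and 419 to 538 CPM in edited SKMEL28. Of 22 V-ATPase subunits, the proton pump of the lysosome and melanosome, 14 were called lower and 4 higher in A375 wild type. ATP6V0D2 averaged 0.14 ± 0.123 CPM in A375 wild type and 19 CPM in SKMEL28 wild type, and ATP6V1B2 64.5 ± 1.72 CPM in A375 wild type and 362 CPM in SKMEL28 wild type. ATP6V0C was slightly higher (log2 0.33 ± 0.067), a direction that turned when a GC trend was removed, and edited SKMEL28 lay above A375 at 286 to 404 CPM.

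Autophagy genes were split, 11 higher and 13 lower of 30 in A375 wild type. WIPI1, a phosphoinositide-binding autophagy protein known as a TFEB and MITF target, averaged 5.55 ± 0.256 CPM in A375 wild type and 78.9 CPM in SKMEL28 wild type (log2 -3.83 ± 0.12). SQSTM1, the cargo receptor p62, averaged 866 ± 3.95 CPM in A375 wild type and 2218 CPM in SKMEL28 wild type (log2 -1.36 ± 0.054). Both separated all 16 libraries. MAP1LC3A, a homologue of the autophagosome protein LC3B, was higher, at 6.74 ± 0.96 CPM in A375 wild type and 0.082 CPM in SKMEL28 wild type. Of 27 folliculin, Rag GTPase and mTORC1 regulator genes, which tie amino acid supply to TFE3 and TFEB, 14 were called lower and 6 higher. RRAGD, a Rag GTPase induced by this family, averaged 5.69 ± 1.08 CPM in A375 wild type and 93.8 CPM in SKMEL28 wild type (log2 -4.04 ± 0.17), FNIP2, a folliculin partner, 12.4 ± 1.32 CPM in A375 wild type and 55.7 CPM in SKMEL28 wild type, and SESN3 1.69 ± 0.363 CPM in A375 wild type and 47.7 CPM in SKMEL28 wild type. TSC2, the tuberin subunit of the complex that restrains mTORC1, was higher (log2 1.54 ± 0.084).

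The mitochondrial respiratory chain had 16 of 27 genes called lower and 5 higher in A375 wild type (median log2 -0.44), and the 3 genes furthest below 0, NDUFB3 (log2 -2.09 ± 0.12), COX5B (-2.06 ± 0.086) and NDUFS1 (-1.50 ± 0.062), were all on chromosome 2. Cholesterol and fatty acid synthesis had 17 of 32 called lower and 6 higher; SCD, the stearoyl-CoA desaturase, averaged 181 ± 10.5 CPM in A375 wild type and 770.0 CPM in SKMEL28 wild type, while the desaturase FADS2 was higher (log2 3.04 ± 0.18). Glycolysis and hypoxia genes were called 10 higher and 13 lower of 30. PDK1, an inhibitor of pyruvate dehydrogenase, averaged 14.8 ± 0.423 CPM in A375 wild type and 80.5 CPM in SKMEL28 wild type, and ALDOC, an aldolase, 31.6 ± 2.68 CPM in A375 wild type and 0.369 CPM in SKMEL28 wild type. CA9, a carbonic anhydrase induced by hypoxia, was called higher at 14.1 ± 1.04 CPM in A375 wild type against 0.123 CPM (3 counts) in SKMEL28 wild type, but edited SKMEL28 ranged over 3.66 to 47.7 CPM.

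Amino acid response genes were called 10 higher and 8 lower of 24 in A375 wild type. ATF4, the factor they answer to, averaged 301 ± 12.6 CPM in A375 wild type and 157 CPM in SKMEL28 wild type (log2 0.94 ± 0.076); edited SKMEL28 lay above both, at 366 to 671 CPM, and overlapped A375 TFE3KO at 377 to 423 CPM. STC2, a secreted glycoprotein induced by stress, averaged 48 ± 2.89 CPM in A375 wild type and had 1 count in SKMEL28 wild type, and PHGDH, the first enzyme of serine synthesis, was lower (log2 -1.39 ± 0.074). NRF2 targets were called 9 higher and 13 lower of 27. Haem oxygenase HMOX1 averaged 29.9 ± 4.14 CPM in A375 wild type and 338 CPM in SKMEL28 wild type (log2 -3.49 ± 0.086), and the quinone reductase NQO1 317 ± 10.1 CPM in A375 wild type and 1246 CPM in SKMEL28 wild type. The exporter ABCC3 (log2 6.77 ± 0.81) and the aldo-keto reductase AKR1C3 (4.86 ± 0.37) were higher. AKR1C3 did not separate, with 7.01 to 7.88 CPM in A375 TFE3KO and 4.55 to 10.5 CPM in edited SKMEL28. Its edited SKMEL28 range lay above SKMEL28 wild type (0.492 CPM) and below A375 wild type (14, 15.1 and 14.1 CPM).

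MHC class II genes were active in A375 wild type and nearly silent in SKMEL28 wild type. CIITA, the co-activator that switches on class II genes, measured 71.5, 74.3 and 76.5 CPM in A375 wild type, against 1.56 CPM in SKMEL28 wild type (log2 5.57 ± 0.17, adjusted p = 9.34e-23). CD74, the invariant chain, measured 895, 888 and 898 CPM in A375 wild type, against 0.205 CPM in SKMEL28 wild type (4357-fold, 95% interval 1867 to 13420.0; log2 12.05 ± 0.16, adjusted p = 1.14e-31). HLA-DRA averaged 23.2 ± 1.1 CPM in A375 wild type and had 1 count in SKMEL28 wild type, and HLA-DRB1 averaged 63.6 ± 1.82 CPM in A375 wild type and 0.246 CPM in SKMEL28 wild type. Edited SKMEL28 held 25.3 to 37.2 CPM of CIITA and 121 to 155 CPM of CD74, both below every A375 library, and 0 to 0.149 CPM of HLA-DRA. HLA-DRB1 was at 20.2 to 29.2 CPM in edited SKMEL28, above SKMEL28 wild type and below every A375 library. In all, 6 of 9 tested class II genes were called higher and 1 lower (median log2 5.78, or 4.56 with genes at 0 put at their bound). The one called lower, HLA-DPB1, was at 0 CPM in A375 wild type and 1.44 CPM in SKMEL28 wild type, with 17.9 to 37.1 CPM in edited SKMEL28.

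Values of HLA genes are uncertain. Many of them resemble one another in sequence and differ between people. Several genes of the same region of chromosome 6, HLA-E and HLA-DQA1 among them, had 0 counts in all 16 libraries. CIITA and CD74 lie on other chromosomes, 16 and 5. B2M, on chromosome 15, the shared light chain of class I molecules, averaged 81.7 ± 5.01 CPM in A375 wild type and 53.1 CPM in SKMEL28 wild type (log2 0.62 ± 0.11), overlapping in the edited libraries. Class I and interferon genes were called 11 higher and 11 lower of 29. The antiviral membrane protein IFITM3 was higher at 117 ± 3.43 CPM in A375 wild type and 1.97 CPM in SKMEL28 wild type. The DNA sensor CGAS was almost absent from A375 wild type, at 0.0307 ± 0.0266 CPM in A375 wild type against 10.6 CPM in SKMEL28 wild type, and its effector STING1 was the reverse, at 19.7 ± 1.51 CPM in A375 wild type against 1.07 CPM in SKMEL28 wild type. Among checkpoint and NK cell ligand genes, 10 of 15 were called higher and 3 lower; CD47 was higher (log2 1.30 ± 0.11), though its edited libraries overlapped, and the galectin LGALS1 lower (log2 -2.21 ± 0.068).

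Secreted cytokines and growth factors were mostly higher in A375 wild type: 29 of 40 were called higher, 25 by at least 4-fold, and 6 lower (median log2 3.57). CXCL1, a neutrophil chemokine, averaged 748 ± 9.17 CPM in A375 wild type and 2.13 CPM in SKMEL28 wild type (log2 8.45 ± 0.34), and CCL2, a monocyte chemokine, 43.6 ± 5.97 CPM in A375 wild type and 0.041 CPM in SKMEL28 wild type. VEGFC, a lymphatic growth factor, averaged 45 ± 1.44 CPM in A375 wild type and 0.082 CPM in SKMEL28 wild type. Of the 40, 10 separated the 16 libraries as higher in A375, near the share of all genes tested (24.5%). CXCL8, interleukin 8, averaged 525 ± 13.4 CPM in A375 wild type and 7.79 CPM in SKMEL28 wild type (log2 6.07 ± 0.33), while edited SKMEL28 spread over 112 to 252 CPM. CSF2, the growth factor GM-CSF, was at 13.3, 12.9 and 14.1 CPM in A375 wild type and 0 CPM in SKMEL28 wild type (at least 109-fold), another of the 14 at 0 in that library alone, with 0.768 to 4.7 CPM in edited SKMEL28. Lower in A375 wild type were IL16 (1.22 ± 0.301 CPM in A375 wild type against 121 CPM in SKMEL28 wild type) and osteopontin, SPP1 (5.39 ± 1.00 CPM in A375 wild type against 73 CPM in SKMEL28 wild type).

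The lines expressed different matrix genes. Of 29 collagen chains, 18 were called higher and 4 lower in A375 wild type (median log2 2.22). The basement membrane chains COL4A1 and COL4A2 averaged 288 ± 12.6 and 727 ± 29.4 CPM in A375 wild type, against 20.8 and 14.6 CPM in SKMEL28 wild type. COL5A1, a fibrillar chain, averaged 141 ± 1.83 CPM in A375 wild type and 0.205 CPM in SKMEL28 wild type (log2 9.39 ± 0.23), and COL13A1, a transmembrane chain, averaged 44.1 ± 0.942 CPM in A375 wild type and had 1 count in SKMEL28 wild type. COL11A1, a cartilage fibril chain, ran against them: 0.0914, 0 and 0.0467 CPM in A375 wild type against 81.7 CPM in SKMEL28 wild type (log2 -10.61 ± 0.33, adjusted p = 1.15e-13). Laminins and basement membrane genes were called 10 higher and 5 lower of 16, with the linker NID1 higher at 136 ± 5.8 CPM in A375 wild type and 3.28 CPM in SKMEL28 wild type. LAMA1 was lower at 7.68 ± 0.758 CPM in A375 wild type and 461 CPM in SKMEL28 wild type.

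Matricellular proteins and proteoglycans were called 13 higher and 15 lower of 32 in A375 wild type. FN1, fibronectin, was lower, at 284, 295 and 276 CPM in A375 wild type against 5300.0 CPM in SKMEL28 wild type (log2 -4.22 ± 0.059, adjusted p = 2.69e-31), and lower than 5685 to 13745 CPM in edited SKMEL28. SPARC, a collagen-binding glycoprotein, averaged 902 ± 2.46 CPM in A375 wild type and 2519.8 CPM in SKMEL28 wild type (log2 -1.48 ± 0.064). FBN1, fibrillin 1, was higher, at 48.2 ± 1.11 CPM in A375 wild type and 0.164 CPM in SKMEL28 wild type. Proteases and their inhibitors were called 17 higher and 9 lower of 28. MMP2, the gelatinase A gene, measured 453, 449 and 454 CPM in A375 wild type, against 0.041 CPM (1 count) in SKMEL28 wild type (ratio 11019, 95% interval 1978 to 435230.0; log2 13.23 ± 0.34, adjusted p = 1.65e-17). Gelatinase B, MMP9, averaged 45.2 ± 3.47 CPM in A375 wild type and 0.082 CPM in SKMEL28 wild type. SKMEL28 instead expressed MMP8, a collagenase (3.96 ± 0.99 CPM in A375 wild type, 348 CPM in SKMEL28 wild type), and MMP17 (6.05 ± 0.249 CPM in A375 wild type and 127 CPM in SKMEL28 wild type).

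Adhesion receptors were more often lower, with 13 of 21 called lower and 3 higher in A375 wild type. CEACAM1, an immunoglobulin family adhesion molecule of differentiated melanoma, measured 0.594, 0.928 and 0.56 CPM in A375 wild type, against 391 CPM in SKMEL28 wild type (log2 -9.13 ± 0.12, adjusted p = 1.14e-31). The hyaluronan receptor CD44 was higher, at 1162 ± 21.3 CPM in A375 wild type and 220.3 CPM in SKMEL28 wild type, above the edited SKMEL28 range of 603 to 919.6 CPM, which A375 TFE3KO overlapped at 681 to 718 CPM. Integrins were called 10 higher and 9 lower of 22. ITGA5, the fibronectin receptor chain, averaged 257 ± 7.36 CPM in A375 wild type and 4.55 CPM in SKMEL28 wild type (log2 5.82 ± 0.25), with 95.6 to 205 CPM in edited SKMEL28, and ITGA3, a laminin receptor chain, 539 ± 6.42 CPM in A375 wild type and 18.9 CPM in SKMEL28 wild type. ITGA9 (log2 -4.31 ± 0.21) and ITGA7 (-3.22 ± 0.17) were lower.

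Caveola and actin contractile genes were called 16 higher and 4 lower of 23 in A375 wild type. Caveolin 1, CAV1, averaged 323 ± 2.81 CPM in A375 wild type and 64.9 CPM in SKMEL28 wild type (log2 2.32 ± 0.086), but edited SKMEL28 overlapped at 174 to 335 CPM. The tropomyosins TPM1 (397 ± 6.47 CPM in A375 wild type, 20.4 CPM in SKMEL28 wild type) and TPM2 (177 ± 10.3 CPM in A375 wild type, 7.14 CPM in SKMEL28 wild type) separated all 16 libraries. MYH10, a nonmuscle myosin heavy chain, was lower (log2 -2.20 ± 0.062). YAP and TEAD targets ran the same way, with 18 of 24 called higher and 3 lower (median log2 1.16). CCN1, a secreted YAP target, averaged 168 ± 2.53 CPM in A375 wild type and 4.84 CPM in SKMEL28 wild type (log2 5.12 ± 0.18), and ANKRD1 11.8 ± 0.897 CPM in A375 wild type and 0.205 CPM in SKMEL28 wild type. TEAD1, the DNA-binding partner, was lower (log2 -0.87 ± 0.068).

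TGF-beta and BMP genes were called 21 higher and 10 lower of 32 in A375 wild type. INHBA, the activin A subunit, measured 260.4, 260.0 and 261 CPM in A375 wild type, against 0.41 CPM in SKMEL28 wild type (635-fold, 95% interval 345 to 1324; adjusted p = 4.65e-18), and TGFB1 averaged 179 ± 4.54 CPM in A375 wild type and 5.13 CPM in SKMEL28 wild type. Edited SKMEL28 lay closer for INHBA, at 16.1 to 47.8 CPM, but below A375 TFE3KO at 169 to 173 CPM. The effector SMAD3 was higher in A375 wild type (log2 2.15 ± 0.085). The BMP effector SMAD9 (log2 -5.78 ± 0.25), the ligand BMP7 (-7.06 ± 0.19) and the BMP-induced inhibitor ID4 (-7.53 ± 0.35) were lower, and all 3 separated the 16 libraries. PMEPA1, a TGF-beta target, was higher at 301 ± 1.44 CPM in A375 wild type and 6.36 CPM in SKMEL28 wild type, yet edited SKMEL28 overlapped at 142 to 335 CPM.

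WNT pathway genes were called 12 higher and 12 lower of 30. The canonical targets RNF43 (0.0152 ± 0.0264 CPM in A375 wild type, 16.7 CPM in SKMEL28 wild type) and AXIN2 (0.465 ± 0.464 CPM in A375 wild type, 5.78 CPM in SKMEL28 wild type) were lower. DKK1, a secreted inhibitor of canonical WNT signalling, was higher at 202, 194 and 200.2 CPM in A375 wild type against 3.03 CPM in SKMEL28 wild type (log2 6.03 ± 0.29), as was WNT5A, given above. In the Notch pathway 5 of 14 genes were called higher and 6 lower. The receptor NOTCH1 averaged 126 ± 6.28 CPM in A375 wild type and 4.59 CPM in SKMEL28 wild type (log2 4.78 ± 0.17) and NOTCH3 20.8 ± 2.13 CPM in A375 wild type and 1.27 CPM in SKMEL28 wild type. The target HEY1, in contrast, averaged 5.79 ± 0.701 CPM in A375 wild type and 93.9 CPM in SKMEL28 wild type (log2 -4.02 ± 0.11), and HEY2 was lower too (log2 -4.08 ± 0.32). Insulin-like growth factor genes were called 9 higher and 5 lower of 15: IGFBP4 and IGFBP6 (log2 4.99 ± 0.37) were higher, IGFBP2 (-3.90 ± 0.10) and IGF2R (-1.76 ± 0.071) lower.

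Some smaller families remained. Of 13 S100 proteins, 7 were called higher and 2, S100B and S100A1 (log2 -4.65 ± 0.079), lower in A375 wild type; S100A4, known from metastasis, averaged 66.5 ± 4.14 CPM in A375 wild type and had 3 counts in SKMEL28 wild type. Survival genes were called 11 higher and 8 lower of 22: MCL1 (log2 2.15 ± 0.12) and the inhibitor of apoptosis BIRC3 (at least 299-fold) were higher, while BIRC7 and the BH3-only gene HRK (log2 -8.39 ± 0.41) were lower. Cancer-testis antigens were called 12 higher and 2 lower of 18. SPANXB1 averaged 38.9 ± 3.88 CPM in A375 wild type and 0 CPM in SKMEL28 wild type, but A375 TFE3KO libraries held 0.399 to 0.893 CPM, far below A375 wild type. HOX genes, which record body position, were called 16 higher and 9 lower of 36. HOXC11, HOXA10 and HOXC12 averaged 14 ± 1.76, 12.6 ± 0.993 and 8.1 ± 1.88 CPM in A375 wild type and 0 CPM in SKMEL28 wild type, whereas HOXD4 (log2 -4.20 ± 0.32), HOXD8 (-2.51 ± 0.15) and HOXA13 (-2.62 ± 0.31) were lower; 22 of the 36 separated the 16 libraries one way or the other.

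**Figure D4:**
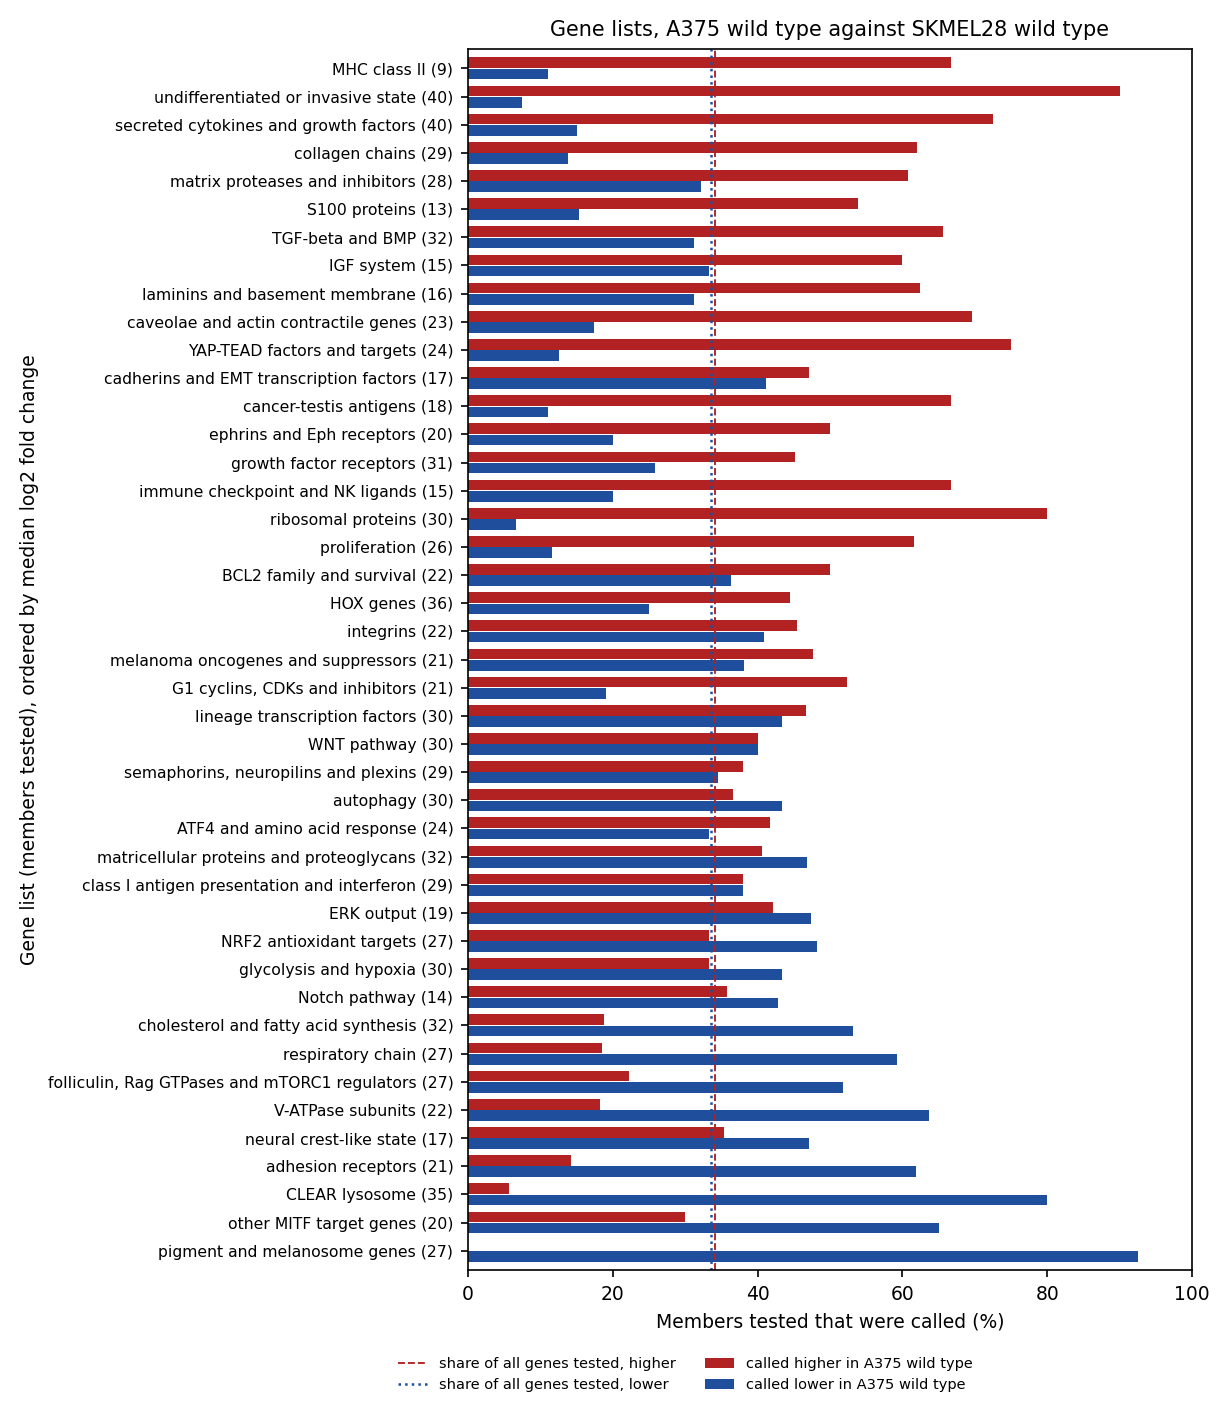
Percent of each list's tested genes called higher (red) or lower (blue) in A375 wild type than in SKMEL28 wild type, ordered by median log2 fold change. Drawn are the lists described with at least 9 genes tested, except the DNA damage response and cell death list. The dashed and dotted lines mark the shares of all genes tested, 34.1% and 33.6%. MHC class II and the undifferentiated or invasive list lie at the top and the pigment list, with none of 27 called higher, at the bottom; no test was made on a list.

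Whole chromosomes also differed. Genes on chromosome 2 had a median log2 fold change of -0.82, with 662 of 1077 called lower (61.5%) in A375 wild type, and chromosome 22 had -0.50, with 220 of 395 called lower (55.7%). Chromosomes 19 (0.52), X (0.47), 16 (0.45), 11 (0.40) and 9 (0.37) lay on the other side, against 0.038 over all genes. Between A375 TFE3KO and edited SKMEL28, which share no library with the wild-type comparison, the medians were -0.55 on chromosome 2, -0.89 on chromosome 22 and 0.33 on chromosome 19. Genes named above that lie on chromosome 2 include PAX3, ZEB2, FN1, MERTK and IGFBP2 among those lower, and TWIST2 among those higher. DNA copy number was not measured, and the part of these shifts in any gene's difference was not tested.

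**Figure D5:**
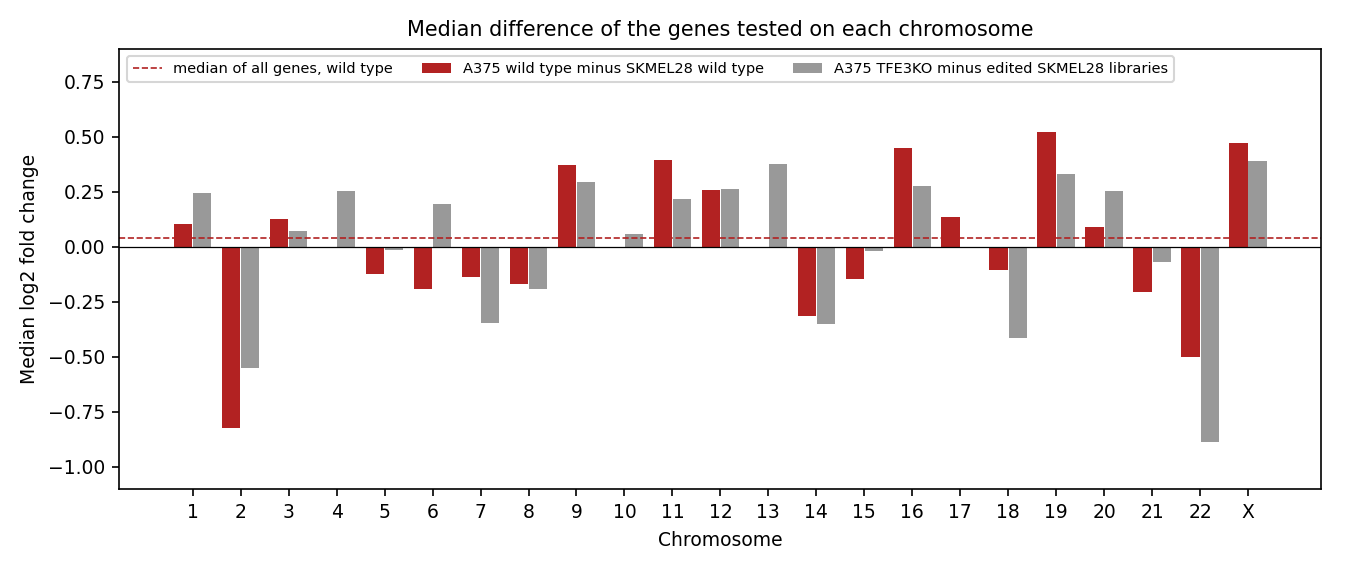
Median log2 fold change of the genes tested on each chromosome, A375 wild type minus SKMEL28 wild type (red) and A375 TFE3KO minus the 9 edited SKMEL28 libraries (grey); the dashed line is the wild-type median over all genes, 0.038. Chromosomes 2 and 22 are lowest in both, and 19 and X are high in both.

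The edited libraries gave a view of both lines without the lone wild-type library. Of the 3638 large wild-type differences, 3390 (93.2%) had the same direction between A375 TFE3KO and the mean of the edited SKMEL28 groups, against 80.2% of all genes tested. They were called that way in 3115 (85.6%) and called and at least 4-fold in 2342 (64.4%), while 132 (3.63%) were called in the opposite direction. Among differences higher in A375 wild type 91 of 1845 (4.93%) turned over, and among those lower 41 of 1793 (2.29%). NGFR, described above, and LOXL2, a matrix cross-linking oxidase, are among those called in the opposite direction. LOXL2 averaged 185 ± 7.78 CPM in A375 wild type and 3.49 CPM in SKMEL28 wild type, while A375 TFE3KO held 164 to 170.3 CPM. The edited SKMEL28 libraries differed among themselves in LOXL2, with 105 to 109 CPM in MITFKO, 184 to 212 CPM in clone 3 and 424 to 701 CPM in clone 13. Since the edited SKMEL28 libraries also carry the MITFKO label and some the TFE3 edit, the wild-type library and the edits cannot be told apart in such genes.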

How the data were processed

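RNA-seq read counts per gene for 28278 symbols, 1 column for each of 16 libraries, were used as the authors deposited them. The submitters' processing notes name STAR, featureCounts, DESeq2 and hg19 without versions; strand, annotation and the handling of shared reads are not stated there. Groups were taken from the titles. Counts were tested with edgeR 4.0.16 (R 4.3.3): filterByExpr by group, TMM scaling, 1 robust quasi-likelihood fit of all 16 libraries in 6 groups, contrast A375 wild type minus SKMEL28 wild type, Benjamini-Hochberg adjustment over 16248 genes, call at an adjusted p under 0.05. CPM were computed from counts and TMM-scaled totals. A fold against 0 uses 3 counts summed over the group; other folds are count ratios with exact 95% intervals.

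The 48 gene lists and the genes named were chosen with earlier results of these data known. Named genes were the MITF family, the 12 largest called differences each way among protein-coding genes with at least 20 CPM in the higher group and no overlap, up to 3 called genes each way per list with at least 5 CPM, and fixed markers; other list members are named as examples chosen after their values were seen, and Y-linked genes and XIST were left out. Some other genes are not reported here. Pairs of A375 wild-type libraries differed beyond counting noise (chi-square per degree of freedom 3.19 to 3.41). Gene symbols and promoters come from RefSeq (GRCh38.p14); no hg19 coordinates are given. The steps were tested on simulated data with 100 genes changed 2-fold and 100 changed 4-fold, far fewer than differed here. That test therefore does not cover differences as widespread as these. Alternatives were RLE scaling, total counts, DESeq2 1.42.0, no filter, other sample sets, a GC trend (GC known for 95.9% of genes), an 8-fold threshold and leaving out each A375 wild-type library; the comparison of edited libraries was added after seeing the data.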

Additional observations from a re-analysis of the deposited data

How the results depend on the processing

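The counts of calls and of large differences stayed within 1.5 times under the other scalings, tests, filters and sample sets tried, leaving out each A375 wild-type library included, and between 89.7% and 99.8% of the large differences were found again. An 8-fold threshold left 1166 large differences lower in A375 wild type, against 1793 at 4-fold. With the edited libraries of both lines in place of the wild-type ones, 1940 genes were called and at least 4-fold higher and 1637 lower. The log2 fold change of LAMP1, not called, turned to -0.030 without a filter on low counts and -0.0096 with only the 4 wild-type libraries, and ranged from -0.010 to 0.033 when an A375 wild-type library was left out. ATP6V0C turned to -0.0089 with a GC trend removed. TYRP1 was called with only the 4 wild-type libraries (adjusted p = 0.046, edgeR) and without A375 wild-type replicate 3 (adjusted p = 0.0273, edgeR), while calls for MDM2 and BRAF were lost as given above. Among lists, 5 proliferation genes rather than 3 were called lower with no filter, with only the 4 wild-type libraries and without the DKO clones, and 5 melanoma oncogenes and suppressors rather than 8 with a GC trend removed. Removing the GC trend moved the median of all genes by 0.123 and RLE scaling by 0.039 (log2). No paired analysis was possible because the wild-type groups share no replicate number (1 to 3 against 4). Depth was even; the limit is the single SKMEL28 wild-type library, whose own culture spread is not measured.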
